A study of Arabidopsis thaliana with 12 samples.

Results

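The transcripts described here are 355 of 22746 Arabidopsis thaliana probe sets that read lower both after a red pulse in wild-type Col-0 seeds and, without red light, in seeds of the pil5 mutant. They were chosen from log2 differences taken within each replicate number, first Col-0 red minus Col-0 dark and then pil5 dark minus Col-0 dark. A probe set was a member when both means were at or below -1, which is a 2-fold lower level, and both differences were at or below -0.5 in all 3 numbers. Of 373 probe sets that met this, some were left out: 11 for genes set aside by name (FHL, ALDH2C4, XERICO, EEL, HIS1-3, IAA30, AGL67, GID1A, GID1C, DPE1 and MGL) and 7 for late embryogenesis abundant genes. These values chose the members, so the low levels in Col-0 red and pil5 dark are a description and were not tested. The pil5 red arrays alone took no part in the choice.

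RNA was measured on 12 Affymetrix arrays, 3 biological replicates in each of 4 groups. Col-0 dark and pil5 dark seeds received a far-red pulse of 3.2 umol per square metre and second for 5 min, Col-0 red and pil5 red seeds received the same pulse and then a red pulse of 13 umol per square metre and second for 5 min, and all 4 groups stood imbibed in the dark for 12 h before extraction. All seeds thus shared the far-red pulse, and the groups called dark ended on it. The mutant groups are labelled with the Salk_072677 allele of pil5, which is 1 line, and no second allele or complemented line was analysed. The age of the seeds and the number of seeds in a sample were not given in the sources used here. No probe set was tied to PIL5 (AT2G20180), so the mutated gene itself could not be checked.

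PIL5, also called PIF1, is a basic helix-loop-helix factor that holds back seed germination in the dark. Red light converts phytochrome to its active form, which binds PIL5 and leads to its breakdown, while far-red light returns phytochrome to the inactive form. PIL5 is known to act on genes of gibberellin and abscisic acid metabolism and signalling, the hormones that promote and restrain germination. A transcript that PIL5 keeps high, directly or through other factors, can therefore be lowered by red light in the wild type and by loss of PIL5 without red light, and the level in pil5 seeds after red light is then the remaining corner of the design.

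Of the 355 members, 194 were tied to 1 gene in the supplied probe set annotation, 5 to several genes and 156 to none. The 194 stood for 193 distinct genes, since AT2G30600 had a pair of probe sets, whose means were -1.02 and -1.10 after red in Col-0 and -1.39 and -1.35 in pil5 dark. A symbol or name beyond the locus tag was given for 24 members, and their functions are described below. Members without a name are given by locus tag and value only. The 156 probe sets with no gene could not be described by function, although the member with the lowest means was among them. 9 members were probe sets of a type that can match several transcripts.

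The members spanned a wide range of signals in dark wild-type seeds. Their mean level in Col-0 dark ran from 5.28 to 13.89 with a median of 9.17 (log2 signal). The mean after red in Col-0 was lower than in Col-0 dark by 1.01 to 5.11 (median 1.46), and the mean in pil5 dark was lower by 1.0 to 4.57 (median 1.43). 36 members read at least 4-fold lower in both.

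**Figure D1:**
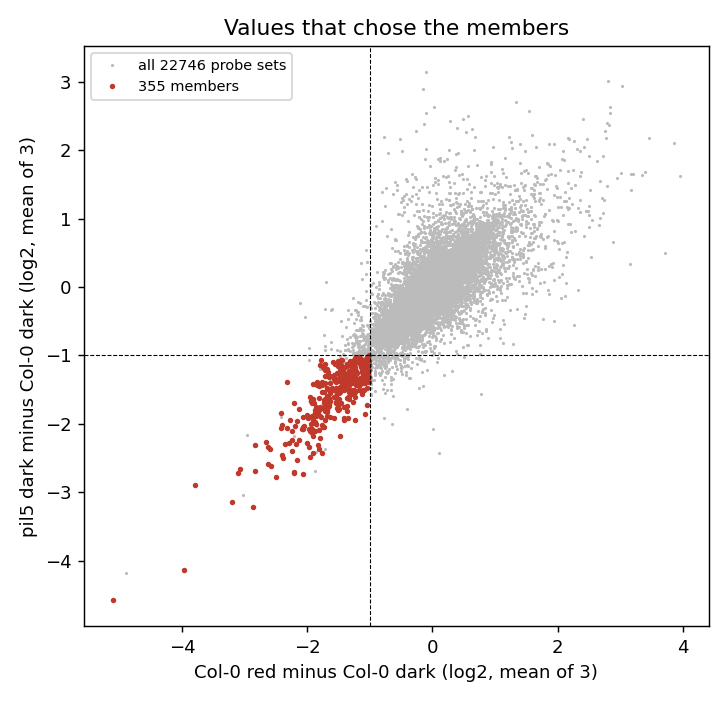
Mean log2 difference of Col-0 red minus Col-0 dark (x axis) against pil5 dark minus Col-0 dark (y axis) for all 22746 probe sets in grey and the 355 members in red, with dashed lines at -1. The axes are the values of the rule, so the position of the red points is fixed by the choice; the few grey points in the same corner were left out by name or by the condition on single numbers.

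The rule was applied at a threshold with no gap around it. Just inside it lay AT2G32090, with means of -1.02 after red and -1.0 in pil5 dark, AT1G12230 with -1.01 and -1.08, and AT3G19990 with -1.05 and -1.02. Just outside it lay AT1G73480 with -1.12 and -1.0, and AT1G30200 with -1.0 and -1.15, values that round to the threshold. The members are thus the far end of a continuous spread of values.

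One array stands apart and bears on every value of the pil5 red group. Over the probe sets that are not members, pil5 red 1 and pil5 red 2 correlated with the pil5 dark array of their number at r = 0.998 and 0.999, while pil5 red 3 did so at 0.984 and correlated with Col-0 dark 3 at 0.987. 958 probe sets of pil5 red 3 read at least 2-fold away from pil5 dark 3, against 1 and 0 for the other numbers. The Col-0 red arrays had 400, 485 and 626 such probe sets, and the Col-0 dark arrays had 1178, 1126 and 1153. Col-0 red 3 also correlated with Col-0 dark 3 at 0.987. Thus pil5 red 1 and 2 lay nearer to pil5 dark than any Col-0 array did. The bioC hybridisation control of pil5 red 3 read 7.29 (log2 signal), and the other 11 arrays read 8.63 to 8.96. The part of this in the results was not tested, and the comparisons of pil5 red are given with and without pil5 red 3. Array medians over all probe sets lay between 6.08 and 6.28. The seed storage and oil body list (6 of 20 genes measured) had a summed level of 14.35 to 14.83 in Col-0 dark, 13.48 to 13.73 in Col-0 red, 13.37 to 13.74 in pil5 dark and 13.21 to 14.52 in pil5 red, so that it moved with the members, and its part in the results was not tested; the seed coat list, with 2 of 8 genes measured, had a summed level of 5.37 to 5.91. None of the 4 endosperm genes was measured. The 2 of 9 leaf photosynthesis genes measured had a summed level of 8.83 to 9.18 in Col-0 dark and 8.17 to 8.36 in Col-0 red. It was 7.91 to 8.07 in pil5 dark and 7.95 to 8.72 in pil5 red. This list thus moved with the members too, and its part in the results was not tested. In these whole seeds fewer cells of a type and less RNA per cell cannot be told apart.

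The members' median level by array was 9.16, 9.31 and 9.04 in Col-0 dark, 7.39, 7.68 and 7.77 after red in Col-0, and 7.51, 7.80 and 7.32 in pil5 dark (log2 signal, numbers 1 to 3). In pil5 red it was 7.32, 7.76 and 8.69. The first and second pil5 red arrays lay at the level of the pil5 dark arrays, and the third lay between those and the Col-0 dark arrays. The median SD of a member between the arrays of a group was 0.28 in each Col-0 group, 0.31 in pil5 dark and 0.61 in pil5 red.

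**Figure D2:**
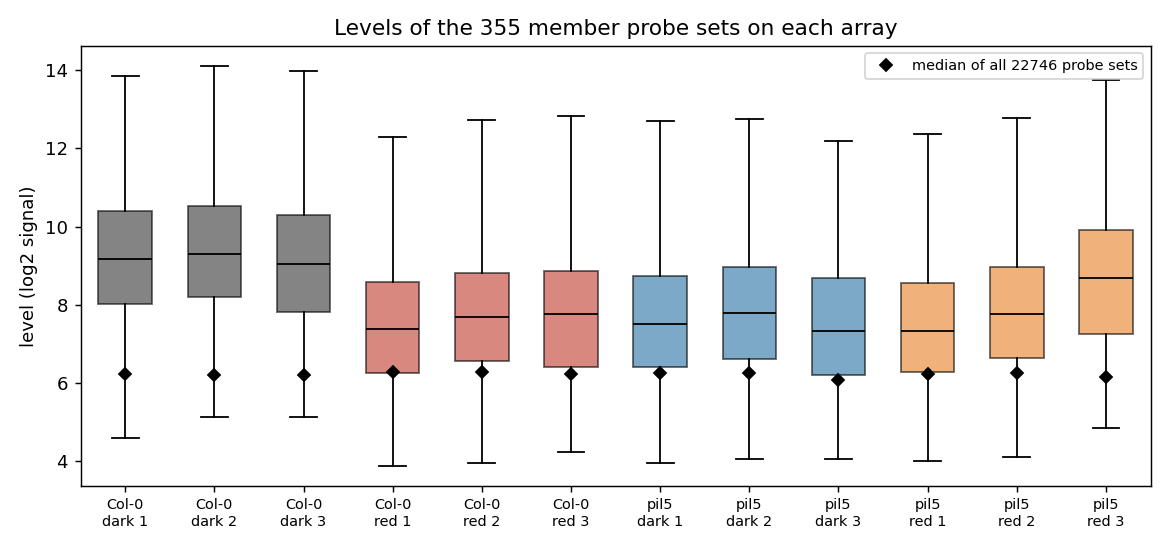
Levels of the 355 members on each of the 12 arrays (log2 signal, y axis); boxes span the quartiles with the median, whiskers the full range, and diamonds mark the median of all 22746 probe sets. The members' median is 9.04 to 9.31 on the Col-0 dark arrays, 7.32 to 7.80 on 8 others and 8.69 on pil5 red 3.

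Both ways of lowering the members led to similar levels. pil5 dark minus Col-0 red had a median of 0.17, 0.12 and -0.25 in numbers 1 to 3, and by group means 186 members were lower after red in Col-0 and 169 were lower in pil5 dark. The mean difference between these groups was at most 0.93 in size for any member, with a median size of 0.16. The rule asks for low levels in both groups, so this closeness is a description.

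The question left by the rule is where the members stood in pil5 seeds that also received red light. In numbers 1 and 2 they stood close to pil5 dark: pil5 red minus pil5 dark had a median of -0.16 and -0.05, and 346 of 355 members (97.5%) lay within 0.5 of pil5 dark in both numbers, against 99.5% of all probe sets. In number 3 the same difference had a median of 1.17, with 346 members higher and 9 at or below pil5 dark 3, while 45.2% of all probe sets were higher. 221 members were at least 2-fold above pil5 dark 3, against 3.07% of all probe sets. The pil5 dark arrays were chosen low, which raises this difference.

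Fitted over all 12 arrays in limma, 0 of 355 members passed an adjusted p of 0.05 for pil5 red against pil5 dark in either direction, as did 0% of all probe sets. The smallest adjusted p of a member was 1, or 0.92 when replicate numbers entered the fit as a block. Without adjustment 2 members and 267 of all probe sets had p below 0.05. The median of the members was 0.32 with all arrays and -0.02 without pil5 red 3. 2 members, AT1G66890 and AT1G48280, read higher on every pil5 red array than on every pil5 dark array (1.91% of all probe sets did), and 0 read lower throughout (2.55% of all). Without pil5 red 3 these counts were 3 (5.59%) and 16 (7%).

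**Figure D3:**
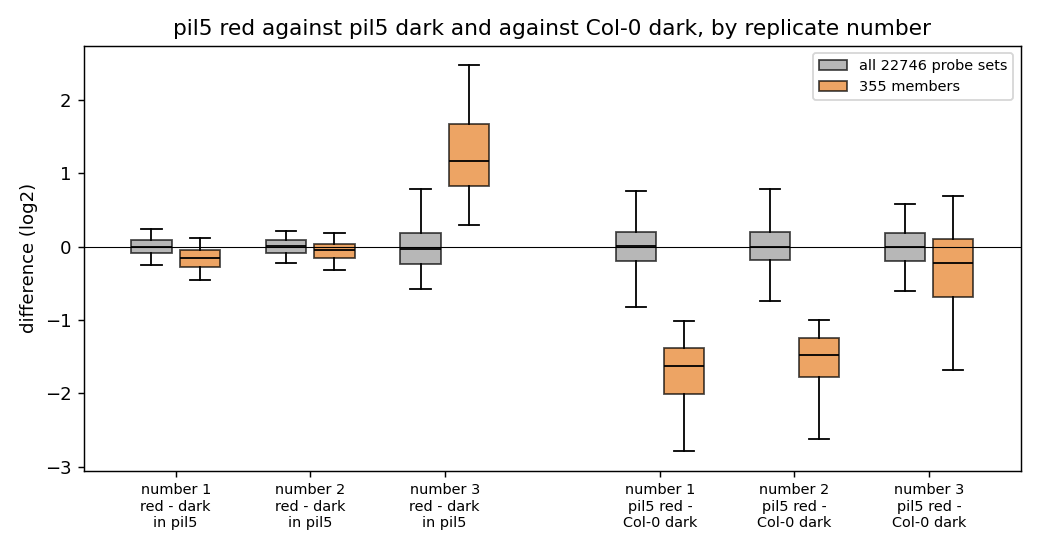
Log2 difference of pil5 red minus pil5 dark (left) and pil5 red minus Col-0 dark (right) within each replicate number, for all 22746 probe sets (grey) and the 355 members (orange); boxes span the quartiles with the median and whiskers run from percentile 5 to percentile 95. In numbers 1 and 2 the members' medians are -0.16 and -0.05 on the left and -1.62 and -1.48 on the right, and in number 3 they are 1.17 and -0.23.

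Against Col-0 red, the other group in which red light and low members came together, pil5 red differed by a median of 0.02, 0.07 and 0.95 in numbers 1 to 3. The fitted median was 0.36, and -0.01 without pil5 red 3. In limma 0 members passed an adjusted p of 0.05, where 0.0396% of all probe sets were higher and 0.154% lower. The smallest adjusted p of a member was 0.14, and 33 members and 2731 of all probe sets had p below 0.05 without adjustment. With the replicate number as a block 9 members were higher (3.57% of all probe sets) and 0 lower (4.7%). Among these 9 were AT4G25580, higher in pil5 red by 1.39 (SE 0.26, adjusted p = 0.012 in the blocked fit), and AT3G52500, higher by 0.46 (SE 0.11, adjusted p = 0.034). AT4G25580 was named after its values were seen, as was AT1G48280 above. 31 members read higher on every pil5 red array than on every Col-0 red array (7.9% of all probe sets) and 2 lower (8.81%), and without pil5 red 3 these counts were 34 (13.5%) and 30 (13.8%). The Col-0 red arrays were chosen low, which raises this difference.

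Against Col-0 dark, fewer members read low with pil5 red 3 than without it. In limma 158 of 355 (44.5%) were lower in pil5 red at an adjusted p of 0.05, where 2.96% of all probe sets were, and 0 were higher, where 3.69% of all were. With the replicate number as a block 266 members were lower (9.47% of all probe sets). The median difference was -1.13 with all arrays and -1.45 without pil5 red 3, and by number it was -1.62, -1.48 and -0.23. The count was 331 without pil5 red 3. With pil5 red 1 left out it was 57, with pil5 red 2 left out 59, with Col-0 dark 1 left out 57 and with Col-0 dark 2 left out 49. Leaving out an array also changes the fit and the adjustment for all probe sets, so these counts alone show nothing particular to the members. 214 members (60.3%) read lower on every pil5 red array than on every Col-0 dark array, which 11.1% of all probe sets did, and without pil5 red 3 the count was 352 (21.6% of all). 0 read higher throughout, with or without it (10.9% and 22% of all). The Col-0 dark arrays were chosen high, which lowers this difference.

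The interaction of genotype and red light is the red effect in pil5 less that in Col-0. It uses every array of the rule, and the choice raises it, although pil5 red took no part in the rule. At an adjusted p of 0.05 it was above 0 for 217 members in limma (3.12% of all probe sets) and below 0 for 0 (3.22%). The blocked fit gave 333 (8.74%) and 0 (8.73%). The count moved between 22 without Col-0 red 1 and 295 without pil5 red 1, and nothing is read from it.

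On pil5 red 3 the members spread widely. Taking pil5 dark of the same number as 0 and Col-0 dark as 100%, the members stood at a median of -11.0% on pil5 red 1, -3.9% on pil5 red 2 and 83.4% on pil5 red 3, where the quartiles were 60.5% and 107.7%. 117 members read above Col-0 dark 3 on this array. The median difference from Col-0 dark 3 was -0.23 for the members and -0.01 for all probe sets, so reading above it was not particular to the members. At the other end, 50 members read at least 2-fold below Col-0 dark 3 (1.39% of all probe sets did). On pil5 red 1 and 2, 338 and 335 members were as far below Col-0 dark of their number (3.38% and 2.65% of all). This array has no replicate of its kind, so the spread is a description, and the cut points are not borders between groups of members.

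**Figure D4:**
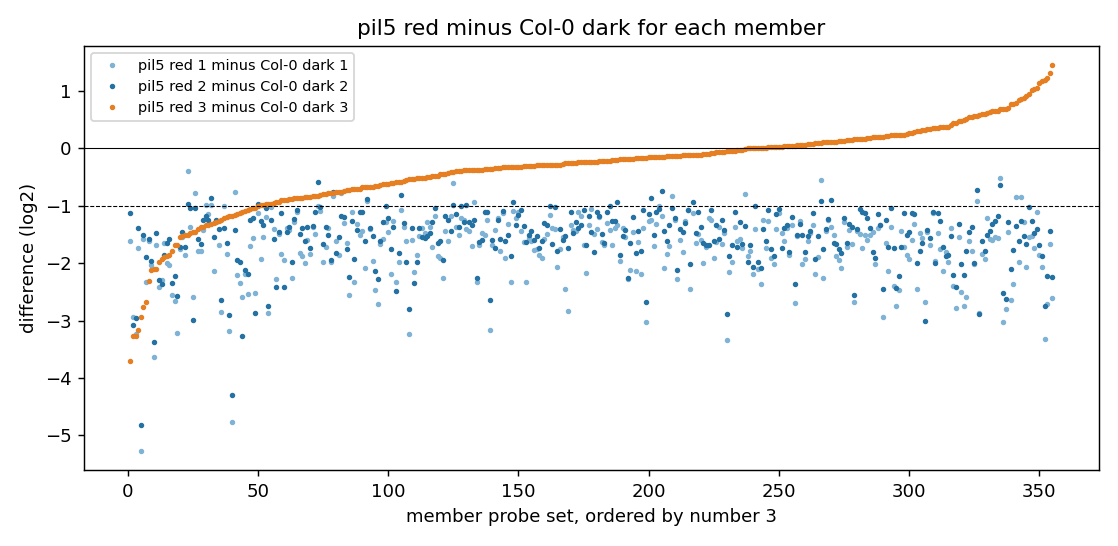
Log2 difference of pil5 red minus Col-0 dark within replicate number for each of the 355 members (y axis), ordered along the x axis by the value in number 3 (orange); numbers 1 and 2 are in light and dark blue, and the dashed line marks a 2-fold lower level. The order was set by the orange values, which run from -3.71 to 1.45, while the blue points have medians of -1.62 and -1.48.

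For each named member the difference of pil5 red from Col-0 dark is given from limma with all arrays and then without pil5 red 3. In the second fit the shared estimate of the spread also leaves that array out. The rule chose the Col-0 dark arrays high, which lowers these differences in advance, so a gene that passed is no independent support. None of the 24 passed without pil5 red 1 or without pil5 red 2 (adjusted p from 0.059 to 0.74).

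Among the members with a name, a pair belong to transporter families. AtNPF4.1 (AT3G25260) is a member of the NRT1/PTR transporter family, some members of which carry abscisic acid or gibberellin. Its level was 9.89, 9.81 and 7.69 in Col-0 dark, 6.79, 7.06 and 5.79 after red in Col-0, and 6.93, 7.06 and 5.56 in pil5 dark. In pil5 red it was 6.65, 7.01 and 7.15. Number 3 was lower than the other numbers in 3 of the 4 groups, and the highest pil5 red array stayed below the lowest Col-0 dark array. The fitted difference of pil5 red from Col-0 dark was -2.19 (SE 0.59), with an adjusted p of 0.053 in limma, or 0.0058 with replicate numbers as a block; without pil5 red 3 it was -2.29 (adjusted p = 0.048).

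SWEET6 (AT1G66770) belongs to a family of sugar transporters. It read 6.17, 6.68 and 7.39 in Col-0 dark, and its Col-0 red values were 4.75, 5.19 and 6.26. It read 4.84, 4.77 and 4.89 in pil5 dark and 4.68, 4.87 and 7.16 in pil5 red. The first and second pil5 red arrays were close to pil5 dark, and the third lay within the Col-0 dark range. The difference of -1.18 (SE 0.60) from Col-0 dark did not pass in limma (adjusted p = 0.31), while without pil5 red 3 it was -1.97 (adjusted p = 0.011).

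Of the 24 named members, 3 code for regulators of transcription or chromatin. Members known by locus tag alone were not sorted by role. DEWAX (AT5G61590), an AP2/ERF factor that represses wax synthesis in the shoot, read 10.41, 10.69 and 10.05 in Col-0 dark, 8.65, 8.89 and 8.92 after red in Col-0, 8.90, 9.18 and 8.93 in pil5 dark and 8.93, 8.96 and 10.08 in pil5 red. pil5 red 3 thus fell inside the Col-0 dark range. It was lower in pil5 red than in Col-0 dark by a log2 difference of -1.06 (SE 0.28, adjusted p = 0.047 in limma), and by -1.44 without pil5 red 3 (adjusted p = 0.00083). CHR42 (AT5G20420), a chromatin remodelling protein of the SNF2 type, read 6.82, 6.81 and 5.90 in Col-0 dark, 5.39, 5.56 and 4.95 after red in Col-0, 5.48, 5.50 and 4.79 in pil5 dark and 5.38, 5.53 and 5.52 in pil5 red. Its pil5 red arrays all lay below its Col-0 dark arrays (-1.03, SE 0.27, adjusted p = 0.047), and the third was no higher than the second. Its difference was -1.05 without pil5 red 3 (adjusted p = 0.047), and it did not pass after quantile normalization (adjusted p = 0.062). REM23 (AT2G35310), of the reproductive meristem group of B3-domain proteins, had levels of 7.60 ± 0.39 (SD, n = 3) in Col-0 dark and 6.50 ± 0.32 in pil5 red, with no overlap (-1.10, SE 0.26, adjusted p = 0.035). Its difference was -1.28 without pil5 red 3 (adjusted p = 0.012).

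Another 3 named members act in the marking of proteins with ubiquitin. SKP2A (AT1G21410), an F-box protein that targets cell cycle regulators for breakdown, read 9.32, 9.65 and 9.22 in Col-0 dark, 7.36, 7.80 and 7.82 after red in Col-0, 7.59, 8.04 and 7.61 in pil5 dark and 7.25, 7.87 and 8.94 in pil5 red. Its pil5 red arrays did not reach Col-0 dark, and the difference was -1.38 (SE 0.34, adjusted p = 0.040 in limma). LUL1 (AT5G03200) and LUL2 (AT3G53410) are related ubiquitin ligases. LUL1 read 8.94, 9.03 and 8.70 in Col-0 dark and 7.74, 7.85 and 8.47 in pil5 red (-0.86, SE 0.18, adjusted p = 0.022). LUL2 read 7.97, 7.98 and 7.87 in Col-0 dark and 6.56, 7.0 and 7.48 in pil5 red (-0.92, SE 0.21, adjusted p = 0.026). For both, the groups did not overlap and pil5 red 3 was the highest pil5 red array. Without it the differences were -1.84 for SKP2A (adjusted p = 0.0009), -1.09 for LUL1 (adjusted p = 0.001) and -1.16 for LUL2 (adjusted p = 0.0021).

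5 named members code for enzymes that act on sugars, glycosides or phenylpropanoids, the precursors of lignin. BGLU44 (AT3G18080), of the beta-glucosidase family, read 11.84, 11.75 and 10.93 in Col-0 dark, 10.20, 9.98 and 8.86 after red in Col-0, 9.81, 9.57 and 8.21 in pil5 dark and 9.43, 9.45 and 8.96 in pil5 red. It was low on all 3 pil5 red arrays, and pil5 red 3 was 1.97 below Col-0 dark 3. The fitted difference was -2.23 (SE 0.45, adjusted p = 0.019 in limma). BGLU19 (AT3G21370), of the same family, read 11.82, 11.89 and 11.06 in Col-0 dark, 9.23, 10.11 and 10.14 after red in Col-0, 9.52, 9.99 and 9.93 in pil5 dark and 9.24, 10.11 and 11.57 in pil5 red. The third pil5 red array lay above Col-0 dark 3, and the difference of -1.28 (SE 0.50) did not pass (adjusted p = 0.16). Thus both beta-glucosidases read low on pil5 red 1 and 2, while on pil5 red 3 they lay on opposite sides of a 2-fold lower level; a difference between them was not tested. Without that array BGLU44 differed by -2.06 (adjusted p = 0.022) and BGLU19 by -1.91 (adjusted p = 0.0063). Neither passed without pil5 red 1 or without pil5 red 2.

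HCT (AT5G48930), a transferase at the branch point towards lignin, read 8.71, 8.63 and 8.61 in Col-0 dark, 7.28, 7.21 and 7.73 after red in Col-0, 7.54, 7.42 and 7.78 in pil5 dark and 7.38, 7.46 and 8.38 in pil5 red. The pil5 red arrays lay below the narrow Col-0 dark range, with a difference of -0.91 (SE 0.24, adjusted p = 0.048 in limma, but 0.058 after quantile normalization). UGT72E1 (AT3G50740), a glucosyltransferase that acts on lignin precursors, read 8.58, 8.68 and 7.59 in Col-0 dark and 7.02, 7.24 and 8.22 in pil5 red. These groups overlapped, and the difference of -0.79 (SE 0.36) did not pass (adjusted p = 0.24). AtGnTL (AT3G52060), named as like an N-acetylglucosaminyl transferase, read 9.14, 9.10 and 9.05 in Col-0 dark and 7.90, 8.0 and 8.69 in pil5 red. Its difference was -0.90 (SE 0.17, adjusted p = 0.015). All 3 genes passed without pil5 red 3, at -1.23 for HCT (adjusted p = 0.001), -1.16 for UGT72E1 (adjusted p = 0.039) and -1.15 for AtGnTL (adjusted p = 0.00021).

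A further 6 named members code for enzymes of amino acid breakdown, detoxification or hormone conjugation. LKR (AT4G33150), the bifunctional enzyme that starts lysine breakdown, read 6.68, 6.64 and 6.74 in Col-0 dark, 5.21, 5.49 and 5.76 after red in Col-0, 5.66, 5.45 and 5.67 in pil5 dark and 5.34, 5.71 and 6.54 in pil5 red. MCCA (AT1G03090), a subunit of the carboxylase of leucine breakdown, read 8.42, 8.46 and 8.14 in Col-0 dark, 7.27, 7.49 and 7.0 after red in Col-0, 7.27, 7.16 and 6.44 in pil5 dark and 6.98, 7.17 and 7.89 in pil5 red. In both genes every pil5 red array lay below every Col-0 dark array. In limma the difference was -0.82 (SE 0.25, adjusted p = 0.079) for LKR and -0.99 (SE 0.26, adjusted p = 0.050) for MCCA. LKR passed with replicate numbers as a block (adjusted p = 0.017). The differences without pil5 red 3 were -1.16 for LKR (adjusted p = 0.0016) and -1.27 for MCCA (adjusted p = 0.0059).

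GSTU16 (AT1G59700), a glutathione transferase, read 8.76, 8.99 and 8.79 in Col-0 dark and 7.59, 8.25 and 8.63 in pil5 red. GLX2-5 (AT2G31350), a glyoxalase of the pathway that clears methylglyoxal, read 9.60, 9.64 and 9.02 in Col-0 dark and 8.0, 8.43 and 9.21 in pil5 red. Neither passed against Col-0 dark in limma (-0.69, SE 0.25, adjusted p = 0.14 and -0.88, SE 0.27, adjusted p = 0.083), and the groups overlapped for GLX2-5. Both passed with replicate numbers as a block (adjusted p = 0.031 for GSTU16 and 0.043 for GLX2-5). Both also passed without pil5 red 3, at -0.93 (adjusted p = 0.025) and -1.21 (adjusted p = 0.0041). FMO (AT1G12200), a flavin monooxygenase, read 8.16, 8.19 and 8.70 in Col-0 dark, 6.81, 6.97 and 7.24 after red in Col-0, 6.85, 6.98 and 6.75 in pil5 dark and 6.66, 6.73 and 7.77 in pil5 red. Its pil5 red arrays lay below Col-0 dark by -1.30 (SE 0.27, adjusted p = 0.019), and by -1.65 without pil5 red 3 (adjusted p = 0.00047). UGT76C1 (AT5G05870), which attaches glucose to cytokinins, read 7.19, 7.65 and 7.15 in Col-0 dark and 5.93, 6.33 and 7.21 in pil5 red. The groups overlapped at pil5 red 3, and the difference of -0.84 (SE 0.28) did not pass (adjusted p = 0.10), although it did in the blocked fit (adjusted p = 0.046) and, at -1.20, without that array (adjusted p = 0.0032).

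The other named members belong to membranes, the cytoskeleton, the plastid or a stress response. NET4B (AT2G30500), an actin-binding protein of the NETWORKED family, read 9.89, 9.77 and 9.60 in Col-0 dark, 9.01, 8.80 and 8.11 after red in Col-0, 8.76, 8.45 and 7.52 in pil5 dark and 8.35, 8.31 and 8.07 in pil5 red. pil5 red 3 was the lowest pil5 red array here, and the difference from Col-0 dark was -1.51 (SE 0.30, adjusted p = 0.017 in limma), or -1.42 without pil5 red 3 (adjusted p = 0.020). NET3A (AT1G03470), of the same family, read 8.66, 8.90 and 8.24 in Col-0 dark and 7.20, 7.09 and 8.45 in pil5 red. Its groups overlapped at pil5 red 3 (-1.02, SE 0.30, adjusted p = 0.074). It passed in the blocked fit (adjusted p = 0.044) and, at -1.45, without pil5 red 3 (adjusted p = 0.00076).

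TET4 (AT5G60220), a tetraspanin, which is a type of small membrane protein, read 10.08, 10.41 and 9.48 in Col-0 dark and 8.45, 8.97 and 9.31 in pil5 red (-1.08, SE 0.32, adjusted p = 0.070 in limma). It passed in the blocked fit (adjusted p = 0.027) and, at -1.28, without pil5 red 3 (adjusted p = 0.030). NdhS (AT4G23890), a subunit of the chloroplast NADH dehydrogenase-like complex, read 6.74, 7.07 and 6.59 in Col-0 dark, 5.41, 5.44 and 5.55 after red in Col-0, 5.35, 5.37 and 5.50 in pil5 dark and 5.26, 5.30 and 6.90 in pil5 red. 8 arrays thus lay together at the low level, and pil5 red 3 lay among the Col-0 dark arrays (-0.98, SE 0.35, adjusted p = 0.13). The difference was -1.53 without pil5 red 3 (adjusted p = 0.00023). SIS (AT5G02020), named as a salt-induced serine-rich protein, read 9.38, 9.64 and 10.15 in Col-0 dark, 7.44, 7.95 and 8.62 after red in Col-0, 7.99, 8.05 and 8.24 in pil5 dark and 7.58, 7.76 and 10.53 in pil5 red. Its pil5 red 3 value was the highest of all 12 arrays, and the difference of -1.10 (SE 0.64) did not pass (adjusted p = 0.39), while without that array it was -2.06 (adjusted p = 0.0021).

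**Figure D5:**
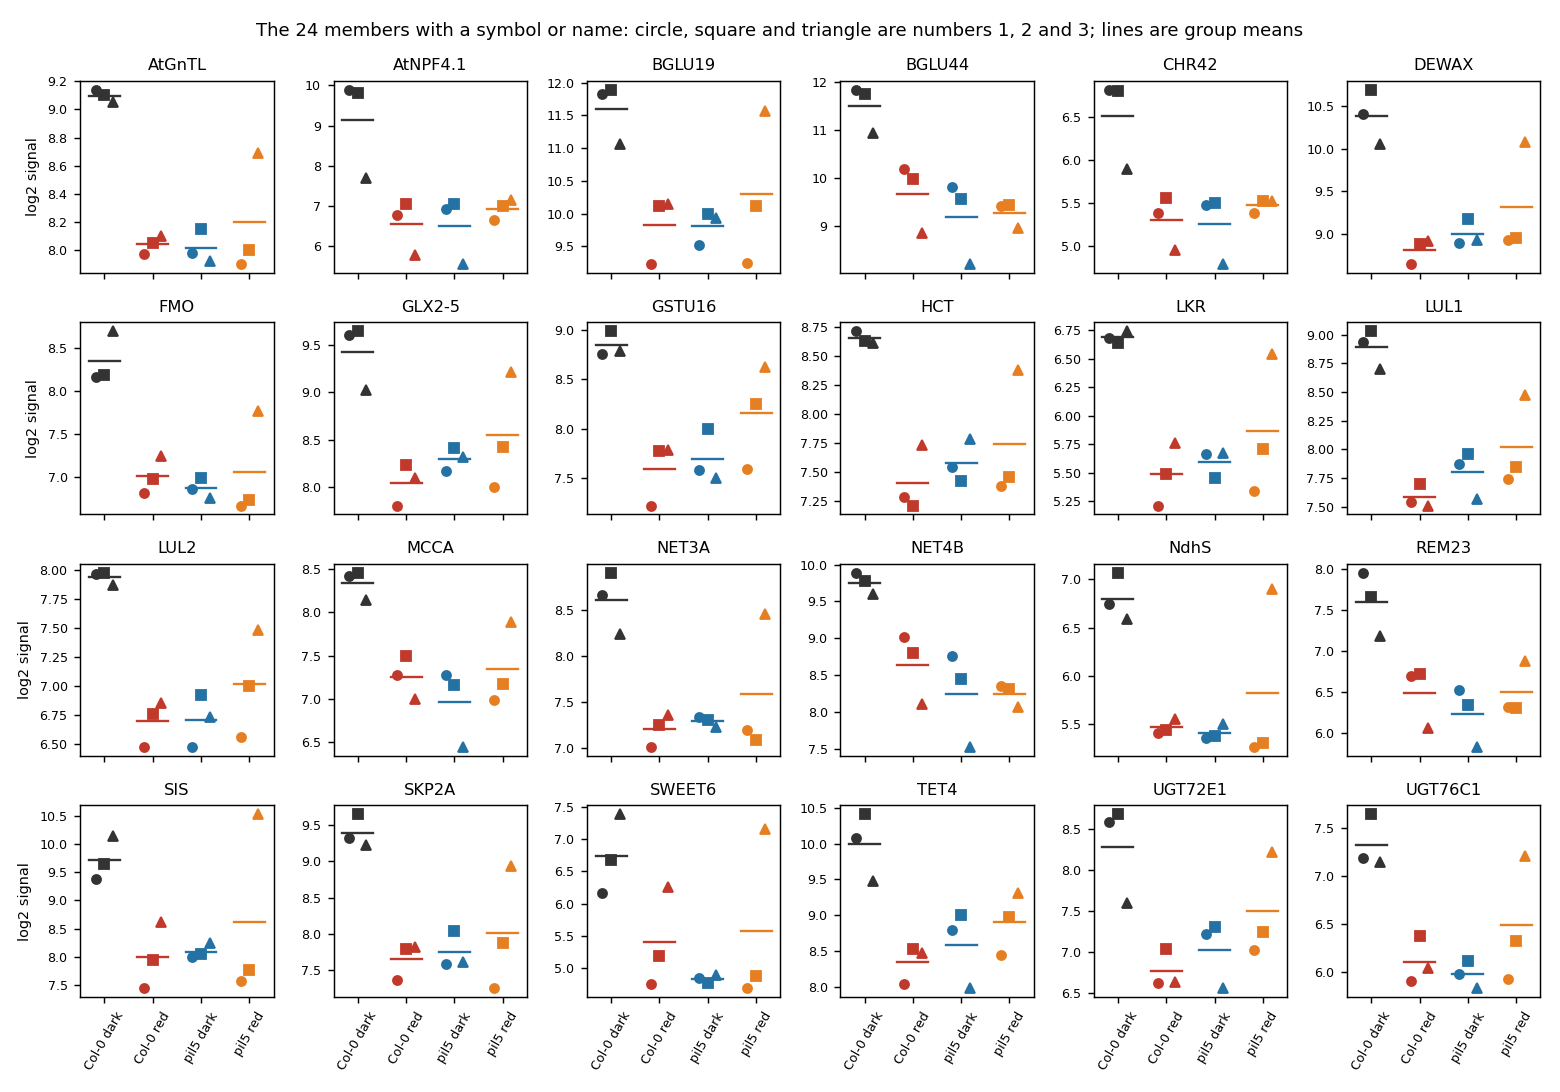
Log2 signal of the 24 members with a symbol or name on each array, by group; circles, squares and triangles are replicate numbers 1, 2 and 3 and lines are group means, and each panel has its own y axis. pil5 red 3 is the highest pil5 red value in 21 of the 24 panels and lies above Col-0 dark 3 in 8. Over all probe sets the median of pil5 red 3 minus Col-0 dark 3 was -0.01.

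Over these 24 members, 12 were lower in pil5 red than in Col-0 dark at an adjusted p of 0.05 in limma (2.96% of all probe sets were). In the blocked fit 19 were (9.47% of all). All 24 were lower without pil5 red 3, and 0 passed without pil5 red 1 or 2. In 15 the groups did not overlap and in 9 they did, where 11.1% of all probe sets read lower with no overlap. The rule chose the Col-0 dark arrays high and the pil5 dark arrays low, which bears on these counts. pil5 red 3 lay above pil5 dark 3 in all 24, against 45.2% of all probe sets. The same array was thus the highest of its group for most of these genes, in each of the groups of roles above.

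By the average of both chosen differences, the lowest member tied to 1 gene was AT1G16850, whose level was 11.50, 11.54 and 11.67 in Col-0 dark, 7.77, 8.25 and 9.35 after red in Col-0, 8.25, 8.93 and 9.41 in pil5 dark and 8.28, 8.97 and 9.98 in pil5 red. All its pil5 red arrays lay below Col-0 dark, and the difference was -2.49 (SE 0.47, adjusted p = 0.015 in limma). AT1G17830 came next and read 7.89, 8.50 and 8.61 in Col-0 dark, 4.95, 5.28 and 5.55 after red in Col-0, 5.36, 5.92 and 5.75 in pil5 dark and 5.37, 5.63 and 7.58 in pil5 red (-2.14, SE 0.48, adjusted p = 0.026). AT1G25275 followed, at 10.28, 10.17 and 10.94 in Col-0 dark and 7.41, 7.43 and 9.98 in pil5 red, and did not pass (-2.19, SE 0.59, adjusted p = 0.051). In these 3 genes pil5 red 3 was the highest pil5 red array. After these, leaving aside AtNPF4.1 above, AT5G45310 (adjusted p = 0.041), AT4G36700 (0.030), AT4G28240 (0.0053) and AT4G01410 (0.0066) passed against Col-0 dark, and AT2G28400 (0.056) and AT2G19320 (0.080) did not. The 3 that did not pass did so with replicate numbers as a block (adjusted p = 0.0034, 0.0064 and 0.015 in the order named). All 9 passed without pil5 red 3, with differences from -2.43 for AT4G36700 to -3.05 for AT1G25275 (adjusted p from 0.00013 to 0.0021). The probe set with the lowest means of all, with no gene, read 11.42, 11.75 and 10.93 in Col-0 dark, 6.08, 6.70 and 5.99 after red in Col-0, 6.62, 7.50 and 6.28 in pil5 dark and 6.15, 6.93 and 7.99 in pil5 red. It differed by -5.11 after red, by -4.57 in pil5 dark and by -4.34 (SE 0.45, adjusted p = 0.0015) in pil5 red, or -4.83 (adjusted p = 0.00018) without pil5 red 3.

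Some members were low on all 3 pil5 red arrays. AT5G66590 read 10.85, 10.99 and 11.21 in Col-0 dark, 8.61, 8.59 and 8.79 after red in Col-0, 8.61, 8.70 and 8.86 in pil5 dark and 8.57, 8.63 and 9.28 in pil5 red. AT3G52500 read 11.21, 11.16 and 11.29 in Col-0 dark, 9.48, 9.36 and 9.60 after red in Col-0, 9.85, 10.16 and 10.08 in pil5 dark and 9.85, 10.13 and 9.83 in pil5 red. In both, none of the other 3 groups overlapped Col-0 dark, with fitted differences in pil5 red of -2.19 (SE 0.18, adjusted p = 0.00027 in limma) and -1.29 (SE 0.11, adjusted p = 0.00046). AT4G33800 read 8.71, 8.58 and 8.52 in Col-0 dark and 7.11, 7.0 and 6.21 in pil5 red, so that pil5 red 3 was the lowest of that group (-1.83, SE 0.21, adjusted p = 0.0019). Without pil5 red 3 the differences of these 3 genes were -2.42, -1.23 and -1.55 (adjusted p = 1.9e-05, 0.00038 and 0.00024). AT3G58200 read below every Col-0 red array on every pil5 red array, at 4.72, 5.16 and 5.28 against 5.30, 5.35 and 5.32. Of the 50 members at least 2-fold below Col-0 dark 3 on pil5 red 3, 23 were tied to 1 gene, and BGLU44 and NET4B were the 2 with a symbol.

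At the other end, AT3G15450 had one of the highest mean differences of pil5 red from pil5 dark. It read 9.09, 9.53 and 9.63 in Col-0 dark, 6.76, 7.22 and 7.02 in pil5 dark and 6.30, 6.91 and 10.31 in pil5 red. AT4G33980 read 8.26, 8.72 and 7.73 in Col-0 dark, 6.25, 6.59 and 6.47 in pil5 dark and 6.19, 6.85 and 8.91 in pil5 red. For both, pil5 red 1 and 2 were near pil5 dark and pil5 red 3 was above every Col-0 dark array. AT1G67920 had the same order, at 5.57, 6.15 and 9.28 in pil5 red against a highest Col-0 dark value of 7.95.

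AT1G19530 was different. It read 10.36, 10.75 and 9.73 in Col-0 dark, 8.35, 8.64 and 8.58 after red in Col-0, 9.66, 10.14 and 7.55 in pil5 dark and 9.45, 10.03 and 10.29 in pil5 red. In numbers 1 and 2 its pil5 arrays were above every Col-0 red array, and its lowest value of all was on pil5 dark 3. The difference of pil5 red from Col-0 dark was -0.36 (SE 0.55, adjusted p = 0.81 in limma), or -0.54 (adjusted p = 0.69) without pil5 red 3.

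The hormone, light and seed maturation genes known in this system were seldom measured under a gene name, and few could be looked for among the members. Of 8 pathway lists with 155 distinct genes, 20 genes were measured, and 1 was a member: AT2G28490, from the list of seed storage and oil body proteins. It read 12.68, 12.61 and 11.90 in Col-0 dark, 10.57, 11.02 and 10.58 after red in Col-0, 10.72, 10.93 and 10.17 in pil5 dark and 10.34, 10.74 and 11.57 in pil5 red. Its pil5 red arrays lay below Col-0 dark (-1.51, SE 0.32, adjusted p = 0.022 in limma), and by -1.86 without pil5 red 3 (adjusted p = 0.0023). Some genes on these lists are absent because the rule left them out by name.

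Of the 20 measured pathway genes, 9 passed in limma for Col-0 red against Col-0 dark (7.33% of all probe sets were lower and 7.81% higher) and 9 for pil5 dark against Col-0 dark (6.01% and 6.08%). The blocked fit gave 13 and 14, where 13.1% and 12.2% of all probe sets were lower and 13.4% and 11.6% higher. The red count was 5 when Col-0 dark 2 was left out, and also when Col-0 red 1 or 2 was. The pil5 count was 5 when Col-0 dark 1 or pil5 dark 3 was left out and 4 when Col-0 dark 2 was. By list, 2 of 6 storage and oil body genes were lower after red and 4 of 6 in pil5 dark, and 2 of 4 gibberellin genes were lower in each. In the blocked fit 5 and 6 of the 6 storage and oil body genes and 3 of the 4 gibberellin genes in each were lower. The gibberellin genes that passed without the block were GID1A and GID1C. Like FHL, XERICO and EEL, which also passed in both comparisons, they met the thresholds on these same differences and were left out by name. The member AT2G28490 passed in both as well. The pathway counts are thus no independent support. 0 of 4 heat shock genes passed in either, although their summed level ran from 9.81 to 13.74 over the pil5 red arrays. By comparison 303 members (85.4%) passed as lower after red and 290 (81.7%) as lower in the mutant, which the rule fixes, and nothing is read from these counts. SIS and SWEET6 were among the members that did not pass in either (adjusted p = 0.11 and 0.18 for red, 0.14 and 0.066 for pil5), although both passed in the blocked fit (0.018 and 0.024, then 0.025 and 0.0059).

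Member genes lay on all 5 nuclear chromosomes of the RefSeq annotation. Chromosome 1 held 31.8% of them, against 25.7% of all measured genes, and chromosome 3 held 16.7% against 20.5%. Chromosomes 2, 4 and 5 held 14.6%, 12.5% and 24.5%, against 16.3%, 14.6% and 22.5%. 0 of the 69 measured plastid genes was a member. The shares are descriptions and were not tested.

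6 pairs of member genes, 12 genes in all, were direct neighbours in the annotation, among 5909 neighbouring pairs with both genes measured. They were AT1G01240 with AT1G01250, AT1G14950 with AT1G14960, AT1G19530 with AT1G19540, AtGnTL with AT3G52070, UGT76C1 with AT5G05880, and AT5G07020 with AT5G07030. In the last pair the means after red were -1.09 and -1.86, and in pil5 dark -1.32 and -1.89. Neighbours can share sequence where they are copies of each other, and how far their probes share matches was not tested.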

How the data were processed

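RNA of 12 samples of imbibed seeds was measured, 1 array each, grouped by the titles into 4 groups of 3. The deposited table holds log2 values of 22810 probe sets, already normalized between arrays by the authors. MAS5 5.0 and RMA are named in the submitters' processing notes, with the role of each not given in the sources used here. The values were used as deposited, after 64 control probe sets were set aside. Members and lists were chosen with earlier results of these data known. Late embryogenesis abundant genes were left out by a list of 53 loci and by symbol.

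Group means were fitted over all 12 arrays in limma 3.58.1 (R 4.3.3, lmFit, then eBayes with no trend). Tests were two-sided, and p-values were adjusted by Benjamini-Hochberg over 22746 probe sets, with 0.05 as threshold. Simulated data served to test the code. The number of arrays limits the precision; 3 against 3 arrays cannot give an exact permutation p under 0.1.

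Arrays of the same number deviated together. Between groups r ran from 0.17 to 0.71, against -0.68 to 0.41 for different numbers, and 11 of 12 arrays correlated best with their own number. The rule and a second fit, with the number as a block, took the numbers as pairs. The main fit and the fits without single arrays did not use the number, so their p-values leave this pairing out. The labels do not say what a number stands for. A fit with the number as a block stands beside the results whose call it changes. Biological replicates are named as such in the titles.

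The supplied annotation tied 13513 of all probe sets to 1 gene, 503 to several and 8730 to none. Of the 194 members with 1 gene, 193 matched RefSeq (TAIR10.1), which gave synonyms, chromosome and neighbours. The array's genome build was not given, so no coordinates are printed. Genes named in the text were all those with a symbol, the 10 lowest means of both chosen differences and members on the pathway lists. Further genes were taken from the 5 highest and 5 lowest pil5 red minus pil5 dark, the 3 nearest the threshold on each side and the 10 lowest p among calls with pil5 red. Those further sets are printed only in part. Others were named after their values were seen, where said or where part of a count. Plots used matplotlib 3.10.9 in Python 3.11.15. The closing text gives the alternatives tried.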

Additional observations from a re-analysis of the deposited data

Results flagged for a closer look

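The difference between the red effect in pil5 and in Col-0 (the interaction, pil5 red minus pil5 dark less Col-0 red minus Col-0 dark) was above 0 at an adjusted p of 0.05 in limma for 217 of 355 members (61.1%), where 3.12% of all probe sets were, and for 333 with the replicate number as a block (8.74%). Its value is raised by the choice of members, which required low Col-0 red and pil5 dark levels against the same Col-0 dark arrays. pil5 red took no part in that choice, so the direction is biased by it but not fixed. These counts are thus no independent support. Leaving out single arrays of Col-0 dark gave counts of 41 (number 1) and 25 (number 2), and of Col-0 red 22, 102 and 90 (numbers 1 to 3). Among pil5 dark arrays, leaving out number 1 gave 64 and number 3 gave 91, and among pil5 red arrays number 2 gave 132 and number 3 gave 228.

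Among the named members the interaction (log2) passed for 15, and for all 24 with replicate numbers as a block. It was 2.01 for SKP2A, 2.0 for UGT72E1, 1.96 for TET4, 1.88 for DEWAX, 1.73 for UGT76C1, 1.72 for GSTU16 and 1.68 for NET3A. It was 1.61 for GLX2-5, 1.56 for LUL2, 1.54 for FMO, 1.53 for LUL1, 1.48 for MCCA, 1.47 for LKR, 1.40 for HCT and 1.24 for AtGnTL. Single samples were not screened within groups, each of which has 3 arrays.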

How the results depend on the processing

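No called value changed direction. Without pil5 red 3 the medians that carry no test turned from 0.32 to -0.02 against pil5 dark and from 0.36 to -0.01 against Col-0 red, with 185 and 149 members changing sign, and 0 against Col-0 dark. With the replicate number as a block, 9 members differed between pil5 red and Col-0 red (0 without it), 266 between pil5 red and Col-0 dark (158 without), 333 for the interaction (217 without) and 14 pathway genes for pil5 in the dark (9 without). It raised the named members lower in pil5 red than in Col-0 dark from 12 to 19, those passing the interaction from 15 to 24 and the storage genes lower after red from 2 to 5. With only the 6 arrays compared, 54 members were lower in pil5 red than in Col-0 dark. Leaving out each array in turn gave 0 to 0 members for pil5 red against pil5 dark, 0 to 1 against Col-0 red, 49 to 331 against Col-0 dark and 22 to 295 for the interaction, and 5 to 13 and 4 to 11 pathway genes for red and for pil5. Fits on fewer arrays also change the spread and the adjustment for all probe sets, so a moved count alone shows nothing particular to the members. Without pil5 red 3, in settings added after seeing the data, every pil5 red array was lower than every Col-0 dark array for 352 members (214 with it), than every pil5 dark array for 16 (0) and than every Col-0 red array for 30 (2). With means at or below -0.8 or -1.5 the rule gave 550 or 124 members in place of 355, and leaving out a replicate number gave 340 to 414. Quantile normalization, median centring, leaving out dim probe sets, a trend in eBayes and a 2-fold minimum kept every count of members within 1.5 times. Motifs in promoters were not run, since no promoter sequences were used here. Dim probe sets lie near background, where differences read small.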
